A study of Mus musculus with 67 samples.

Results

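Imprinted genes are transcribed mainly from the copy inherited from 1 parent. The 8 genes described here, H19, Cdkn1c, Phlda2, Igf2r, Meg3, Grb10, Ascl2 and Slc22a18, are known for expression from the maternal copy, and they were taken by symbol from the 26414 genes of the expression table, where all 8 were found. Polyadenylated RNA from mouse preimplantation embryos was sequenced by SMART-seq2, a full-length method for single cells, in 67 libraries of 5 stages. Embryos came from C57BL/6 mice by in vitro fertilisation, so both parents were of 1 strain and reads could not be assigned to a parental copy. The light group had been exposed to high-intensity light as 2-cell embryos and was otherwise cultured like the control group, which was kept in the dark. Control libraries numbered 7, 6, 4, 13 and 3 from the 2-cell stage over the 4-cell, 8-cell and morula stages to the blastocyst, and light libraries numbered 6, 8, 8, 6 and 6. The labels number an embryo for each library, while the paper counts 67 single cells and its methods describe manual picking. Libraries of a group may therefore share an embryo, and a blastocyst library may hold 1 cell type only. Embryos, morulae and blastocysts named below stand for the libraries of a group.

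In mammals the 2 parental genomes carry different methylation marks at imprinting control regions, and these marks pass through the genome-wide reprogramming of the early embryo. Many imprinted genes act on the growth of the fetus and placenta. Expression from the maternal copy often restrains growth: Igf2r, a receptor that takes up the growth factor Igf2 for degradation, Grb10, an adaptor that dampens insulin signalling, Cdkn1c, an inhibitor of cyclin-dependent kinases, and Phlda2, a pleckstrin homology domain protein that limits placental growth, are textbook cases. Ascl2 is a basic helix-loop-helix factor of the trophoblast, Slc22a18 encodes a membrane transporter, and H19 and Meg3 are long noncoding RNAs. In the early embryo, RNA of such genes can also be left over from the oocyte.

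The genes share position as well as their parental pattern. Of the 8, 5 (H19, Ascl2, Cdkn1c, Slc22a18 and Phlda2) lie on chromosome 7 within 0.928 Mb, while 8.60% of the table's genes found in the annotation are on that chromosome. Igf2r is on chromosome 17, Meg3 on chromosome 12 and Grb10 on chromosome 11. The promoter windows of the 3 genes that differed between light and control at the 2-cell stage are shown because the first 2 lie in the chromosome 7 cluster and the last does not. Each holds 300 bases 5′ to 3′ on the strand of the gene, from RefSeq (GRCm38.p6), with CG dinucleotides in capitals.
Ascl2: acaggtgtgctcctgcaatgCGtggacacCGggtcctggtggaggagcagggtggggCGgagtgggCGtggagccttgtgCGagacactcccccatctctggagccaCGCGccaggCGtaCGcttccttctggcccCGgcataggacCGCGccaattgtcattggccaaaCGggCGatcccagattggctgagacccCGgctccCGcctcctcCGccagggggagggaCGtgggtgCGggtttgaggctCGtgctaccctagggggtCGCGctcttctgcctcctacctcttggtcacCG
Phlda2: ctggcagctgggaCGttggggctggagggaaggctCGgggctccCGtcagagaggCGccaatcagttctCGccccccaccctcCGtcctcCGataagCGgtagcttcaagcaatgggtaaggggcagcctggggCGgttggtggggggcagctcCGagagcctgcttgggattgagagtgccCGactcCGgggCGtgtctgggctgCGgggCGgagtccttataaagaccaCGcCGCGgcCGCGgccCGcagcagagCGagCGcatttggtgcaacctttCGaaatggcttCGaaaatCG
Igf2r: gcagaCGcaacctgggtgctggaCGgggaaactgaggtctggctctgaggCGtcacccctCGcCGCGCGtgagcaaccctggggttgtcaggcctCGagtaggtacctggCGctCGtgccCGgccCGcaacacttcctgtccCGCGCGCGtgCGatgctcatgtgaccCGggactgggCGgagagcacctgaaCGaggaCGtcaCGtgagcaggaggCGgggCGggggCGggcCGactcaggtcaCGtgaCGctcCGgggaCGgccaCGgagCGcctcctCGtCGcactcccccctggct
The windows lie at chr7:142969215-142969514, chr7:143502475-143502774 and chr17:12769657-12769956, all on the minus strand, and run from 250 bases before to 50 bases after the start. They hold 23, 26 and 34 CG dinucleotides, against a median of 7 over 32851 mouse windows of the same length. At least as many were found in 21.5%, 16.9% and 7.73% of all windows, respectively. RefSeq windows were matched for 6 of the 8 genes and not for H19 and Cdkn1c.

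Values are the deposited ones, in which reads had been scaled by a factor for each library and 1 read stood for 0.266 to 3.89. Libraries held 836011 to 8551674 reads, of which 54.0% to 89.3% lay on the ribosomal RNA features CT010467.1 and Gm42418. Genes were tested where 3 or more libraries of a comparison exceeded a value of 1, and a gene was called where limma's adjusted p (Benjamini-Hochberg over all genes tested) was under 0.05 with a fold change of at least 2. Fold changes are log2 differences of value + 1. By median correlation, 17 of 33 control libraries (12 of 13 morulae, 4 of 6 at the 4-cell and 1 of 7 at the 2-cell stage) and 0 of 34 light libraries were closer to the other condition of their stage than to their own group. The gap was widest in control 4-cell library 3, at 0.887 with the light 4-cell libraries and 0.849 with the other control libraries, and the 4-cell comparisons with control libraries were repeated without it. Y-linked genes reached 10 CPM, counted outside the ribosomal features, in 0 of 20 control libraries from the 8-cell stage on and in 6 of 6 light blastocyst libraries. Where libraries of a group share an embryo, p-values measure only the spread between these libraries. The 6 libraries with fewer than 2000000 reads were kept, and values without them are given where one of the 8 genes lost or gained a call.

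Igf2r was read in all 67 libraries, with 32214 reads in total, more than the other 7 genes together. Grb10 was read in 61, Cdkn1c in 50, Phlda2 in 48, Ascl2 in 33 and Meg3 in 32 libraries. H19 was read in 6 libraries and Slc22a18 in 4, all of the latter at the blastocyst stage. Per kb of exon, Phlda2 was the highest of the 8 genes in control 2-cell embryos (82.7 per kb), ahead of Cdkn1c (32.8) and Ascl2 (26.1), and Igf2r held only 5.70 per kb. From the control 4-cell stage Igf2r led, with 77.4 per kb or 82.7% of the summed level of the 8 genes, and it stayed in the first place through the control blastocyst at 17.5 per kb. In light blastocysts Phlda2 led with 22.4 per kb, a mean that 1 library set (light library 23). The detection map shows in how many libraries of each group each gene was read, which does not show these levels.

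**Figure D1:**
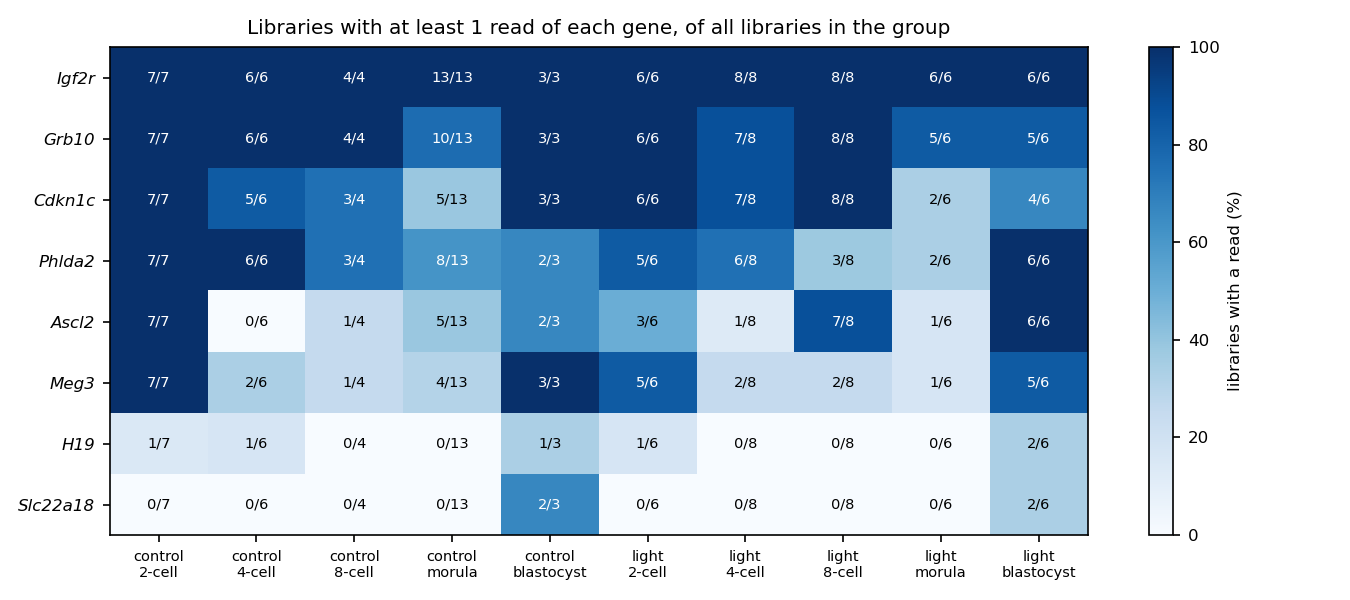
Number of libraries with at least 1 read of each gene (rows) in each of the 10 groups (columns), with the colour giving the percentage. Igf2r was read in every library, while Ascl2 was read in 7 of 7 control and 3 of 6 light 2-cell libraries, in 0 of 6 control 4-cell libraries and in 6 of 6 light blastocyst libraries.

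Across the control stages, Igf2r rose and most of the other genes fell between the 2-cell and the 4-cell stage. Igf2r had 21.0 to 122.6 (median 42.7) in the 7 control 2-cell libraries and 513.3 to 876.7 (median 746.5) in the 6 control 4-cell libraries. The groups did not overlap, and the difference was 3.95 on the log2 scale (SE 0.40, limma adjusted p = 9.85e-08). Phlda2 went from 47.6 to 193.9 (median 57.9) down to 1.52 to 17.0 (median 3.93), again without overlap (found for 20.4% of all genes; log2 fold change -3.90, SE 0.58, limma adjusted p = 1.27e-05). Ascl2 had 0.869 to 114.5 (median 31.3) in control 2-cell libraries and no read in any of the 6 control 4-cell libraries. Limma gave Ascl2 a log2 fold change of -4.54 (limma adjusted p = 0.000148). The control 2-cell mean of Ascl2 (42.3) was 127.5-fold the level that 3 reads over the 4-cell group allow (0.332). That ratio uses the mean only, does not cover the spread of the 2-cell libraries and was not tested. Grb10 fell from a mean of 96.6 ± 41.9 (SD, n = 7) to 24.1 ± 18.4 (SD, n = 6), Cdkn1c from 66.9 ± 35.3 to 16.1 ± 17.9, and Meg3 from 7.33 ± 8.57 to 0.468 ± 0.804. Their log2 fold changes were -2.32, -2.77 and -1.97 (limma adjusted p = 0.00344, 0.00452 and 0.0243), of which edgeR did not call Cdkn1c (adjusted p = 0.0540). In all, 6 of the 8 genes were called, 5 lower and 1 higher, where 46.1% of all genes tested were called (32.3% lower, 13.8% higher). The median of the 6 tested was -2.54, beside -0.72 over all genes, and the 6 calls were also made without control 4-cell library 3.

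In the light group the same step gave 3 calls among the 8 genes (5 tested), 1 higher and 2 lower, where 36.5% of all genes were called (7.43% higher, 29% lower). Igf2r rose from 60.1 to 531.8 (median 113.8) at the 2-cell stage to 469.5 to 849.5 (median 671.6) at the 4-cell stage (log2 fold change 2.16, SE 0.33, limma adjusted p = 8.22e-06), with overlapping groups. Cdkn1c fell from a mean of 89.5 ± 56.6 (SD, n = 6) to 9.50 ± 11.6 (SD, n = 8), and Meg3 from 9.60 ± 13.5 to 0.183 ± 0.364 (log2 fold changes -3.58 and -2.43, limma adjusted p = 7.68e-05 and 0.00246). Grb10 and Phlda2 had log2 fold changes of -1.13 and -1.50 and were not called (limma adjusted p = 0.220 and 0.206). Ascl2, with 3 of 6 light 2-cell and 1 of 8 light 4-cell libraries read, was below the filter. These steps share their libraries with the comparisons of light with control at the same stages.

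Later control stages brought few calls. Igf2r had 372.2 to 446.4 in the 4 control 8-cell libraries, below each of the control 4-cell libraries (groups without overlap, 6.79% of all genes), but was not called (log2 fold change -0.80, limma adjusted p = 0.116). There limma called 0 of the 8 genes, with 1 at an unadjusted p under 0.05 (Igf2r) and 0 by edgeR and DESeq2, against 6.31% of all genes. The median of all genes moved by -0.56 in the same comparison. Control morulae held 124.6 to 479.2 (median 192.0) and control blastocysts 147.7, 156.7 and 185.4 of Igf2r, and limma called 0 of the 8 genes from the 8-cell stage to the morula (14.3% of all genes), with 2 at an unadjusted p under 0.05 (Cdkn1c and Igf2r), 0 by edgeR and 1 by DESeq2 (Igf2r). Meg3 was the 1 gene called from the control morula to the blastocyst (11.9% of all genes). It had 0 to 31.6 (median 0) in the 13 morula libraries and 5.78, 41.4 and 55.2 in the 3 blastocyst libraries (log2 fold change 3.92, SE 0.95, limma adjusted p = 0.00709), and the call was lost without blastocyst library 1 or 2 and with both count models.

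In the light group Ascl2 alternated along the later stages. It was read in 1 of 8 libraries at the 4-cell stage and in 7 of 8 at the 8-cell stage (0 to 19.9, median 5.38). Reads were found in 1 of 6 morula libraries and in 6 of 6 blastocyst libraries (5.26 to 24.2, median 14.5). The 3 steps had log2 fold changes of 2.05 (limma adjusted p = 0.0206; edgeR 0.0731), -2.33 (limma adjusted p = 0.0120) and 3.65 (limma adjusted p = 8.40e-05). Only the last step had groups that did not overlap, which held for 8.22% of all genes there. Igf2r fell at each of these steps, from 213.2 to 474.8 (median 344.5) at the 8-cell stage over 90.8 to 235.2 (median 134.5) in morulae to 15.8 to 90.2 (median 23.0) in blastocysts. The step from the 4-cell to the 8-cell stage (-1.03, limma adjusted p = 0.000530) was lost under the median ratio, CPM outside the ribosomal features, edgeR and DESeq2 and, through a fold below 2, without the libraries under 2000000 reads (-0.94, limma adjusted p = 0.00591), and the median of all genes lay at -0.45 there. DESeq2 did not call its step from the 8-cell stage to the morula. From the morula to the blastocyst the light groups did not overlap for Igf2r (log2 fold change -2.34, SE 0.41, limma adjusted p = 9.37e-05). Cdkn1c fell from the 8-cell stage to the morula (log2 fold change -2.29, limma adjusted p = 0.0296), with reads in 8 of 8 and 2 of 6 libraries. That call was lost without the filter (limma adjusted p = 0.0695), with DESeq2 (adjusted p = 0.116) and without the libraries under 2000000 reads (limma adjusted p = 0.0544). Counted over the 8 genes, the calls were 2, 3 and 2 at these steps, against 10.6%, 11.8% and 20.7% of all genes.

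**Figure D2:**
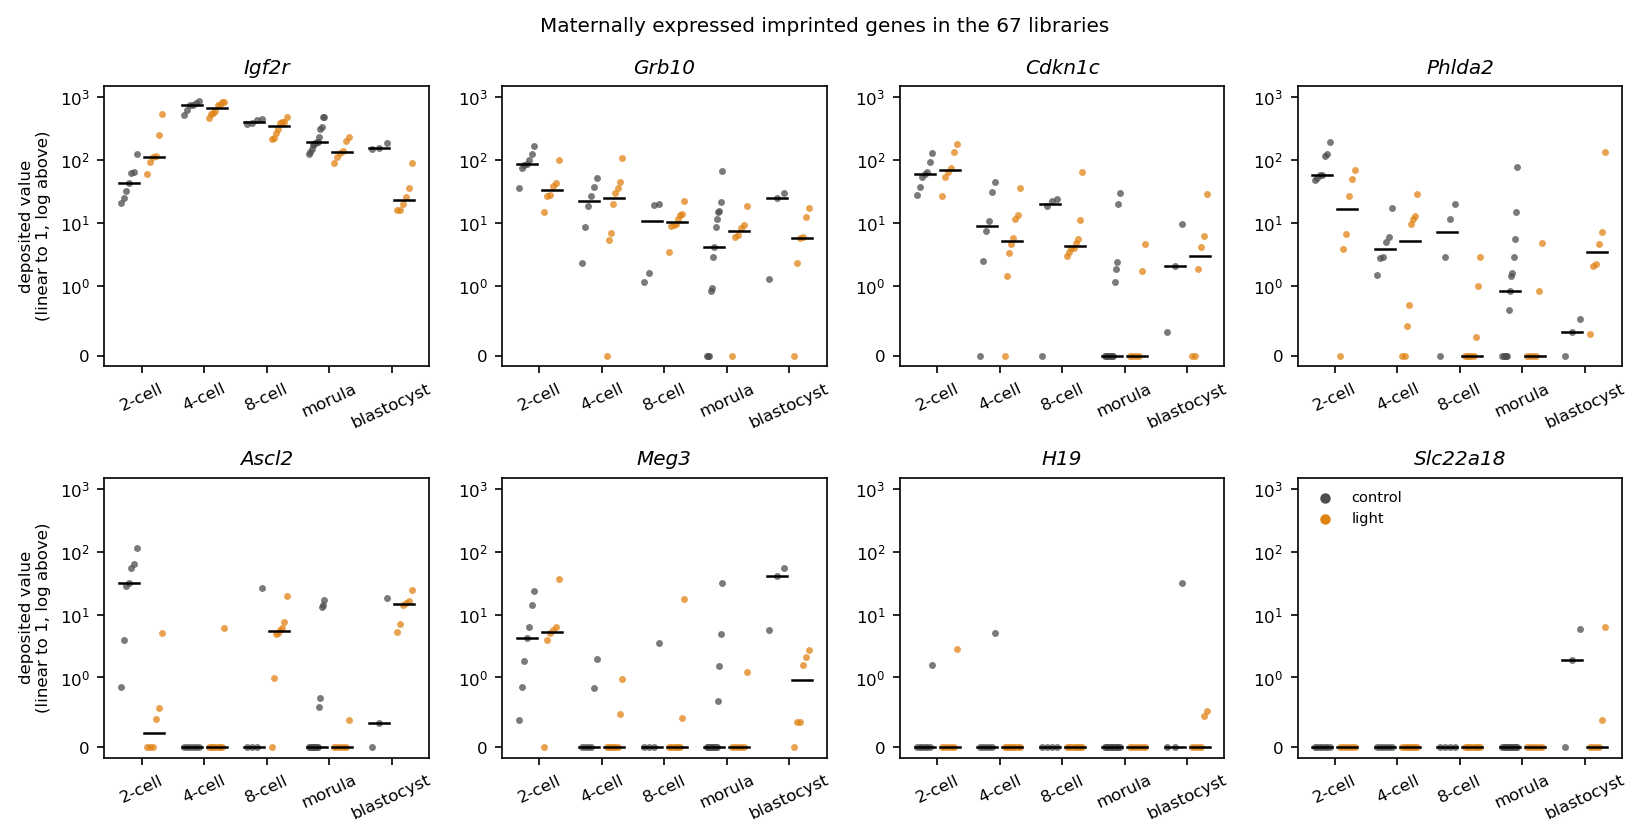
Deposited value of each of the 8 genes in every library (points; grey, control; orange, light) by stage, with the group median as a bar; the axis is linear up to 1 and logarithmic above. Igf2r peaks at the 4-cell stage in both conditions, at medians of 746.5 (control) and 671.6 (light), and ends at medians of 156.7 (control) and 23.0 (light) in blastocysts.

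Ordered by mean, the control levels of Igf2r ran from the 4-cell stage (720.1) over the 8-cell stage (407.7), the morula (243.5) and the blastocyst (163.3) to the 2-cell stage (53.1). The 8-cell and morula libraries overlapped, as did morula and blastocyst, while the first and the last neighbours in this order did not. In light embryos the 2-cell mean (194.2) lay above the morula (152.0), and the only neighbours that did not overlap were the morula and the blastocyst (34.0). For Cdkn1c and Phlda2 in control, the 2-cell libraries stood without overlap above the 8-cell libraries, the next group by mean. For Cdkn1c they did overlap the 4-cell libraries (from 27.6 against up to 45.2). For Phlda2 they overlapped the morula libraries (from 47.6 against up to 77.2). The Phlda2 level of the blastocyst (0.291) also lay below the 4-cell level (5.85) without overlap. All other neighbours in the order of means overlapped for these 3 genes, and all neighbours overlapped for Grb10, Meg3, Ascl2, H19 and Slc22a18.

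**Figure D3:**
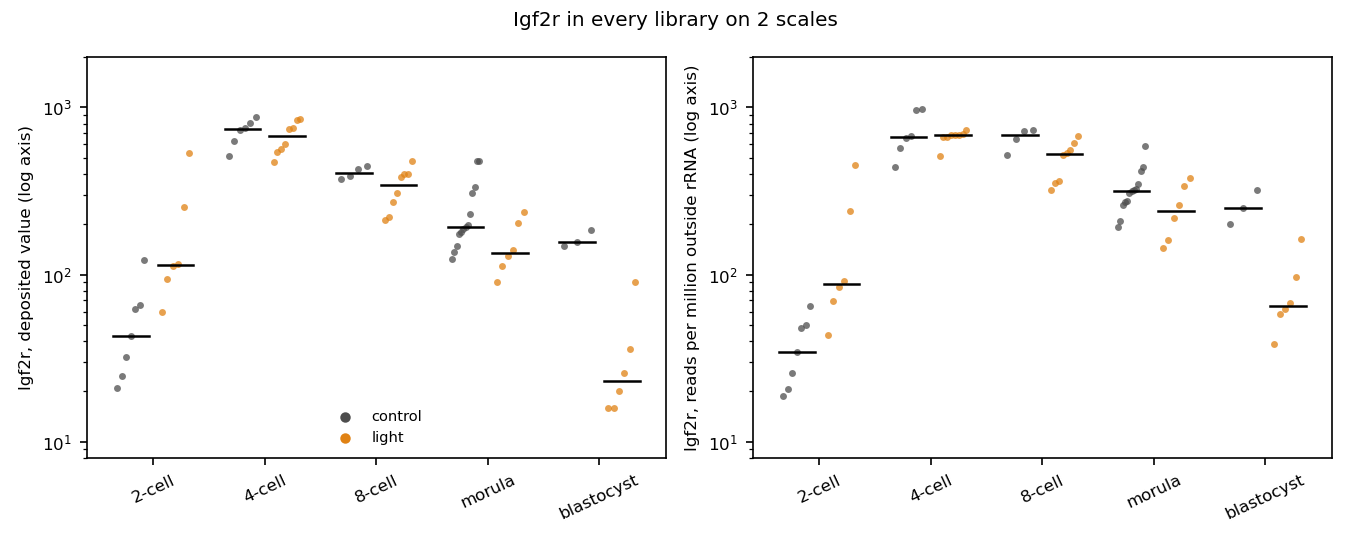
Igf2r in every library by stage (points; grey, control; orange, light; bars, medians; logarithmic axes) as the deposited value (left) and as CPM outside the ribosomal features (right). Light blastocysts lie below the control blastocysts on both scales, with means of 34.0 against 163.3 and of 80.9 against 256.6.

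At the 2-cell stage the comparison sets light-exposed against control embryos at the stage at which light was given. Ascl2 and Phlda2 were lower and Igf2r was higher in light than in control libraries, and the other 3 genes tested were not called. Ascl2 had 0 to 5.01 (median 0.206) in the 6 light libraries against 0.869 to 114.5 (median 31.3) in the 7 control libraries. Light libraries held at most 3 reads of it, and the groups overlapped through 1 control library with a single read (control library 17). The log2 fold change was -3.91 (SE 0.91, limma adjusted p = 0.00503; exact permutation test, two-sided, p = 0.00524). Apart from the replicate block, with which none of the genes was called at this stage, it was called under each of 9 alternatives, with log2 fold changes from -5.87 to -3.60, and without any 1 library.

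Phlda2, in the same chromosome 7 cluster as Ascl2, had 0 to 68.6 (median 16.7) in light and 47.6 to 193.9 (median 57.9) in control. Light libraries 9 and 10 lay within the control range and the other 4 below it. The log2 fold change was -2.73 (SE 0.71, limma adjusted p = 0.0113; exact permutation test, two-sided, p = 0.00699), and edgeR gave -1.70 (adjusted p = 0.0612). Cdkn1c, also in the cluster, was not called (log2 fold change 0.33). Of 12 genes neighbouring the members in all their loci, 0 of 8 tested were called at this stage (10.5% of all genes), with a median log2 fold change of -0.05. That list leaves out 2 genes of the chromosome 7 cluster. Osbpl5 was called lower, and Th had an unadjusted p under 0.05 in limma without a call. Igf2r had 60.1 to 531.8 (median 113.8) in light and 21.0 to 122.6 (median 42.7) in control. Light library 12 stood highest with 1288 reads, and 5 of the 6 light values lay above 6 of the 7 control values. Its log2 fold change was 1.68 (SE 0.48, limma adjusted p = 0.0202; exact permutation test, two-sided, p = 0.0117), and the call was lost without light library 12 (1.31, limma adjusted p = 0.0884) or 9 (1.53, limma adjusted p = 0.0600).

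Grb10 was 15.1 to 100.1 (median 33.7) in light and 35.6 to 170.0 (median 88.1) in control, a log2 fold change of -1.29 (SE 0.46, limma adjusted p = 0.0645). It was not called by limma but was by edgeR (adjusted p = 0.0484) and DESeq2 (adjusted p = 0.0275), and by limma without control library 17 (adjusted p = 0.0288) or light library 15 (adjusted p = 0.0206). Cdkn1c (27.2 to 178.8 in light, 27.6 to 131.8 in control) and Meg3 (0 to 36.7 in light, 0.397 to 23.5 in control) had log2 fold changes of 0.33 (95% interval -0.61 to 1.26) and 0.24 (-1.58 to 2.06). H19 was read in 1 library of each group, with 4 reads in both, and Slc22a18 in none. The 3 calls of 8 genes, 1 higher and 2 lower, compare with 10.5% of all genes called, 5.53% higher and 4.96% lower, and 0 of the 8 genes had groups without overlap, which 4.15% of all genes had.

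RNA from the oocyte also differed between the 2 groups. The summed value of 10 oocyte transcripts was 859.7 to 2367 in light and 2766 to 5955 in control 2-cell libraries, without overlap, and 4 of the 10 were called lower. Igf2r was highest in light libraries 12 and 9, whose sums of the 7 genes expressed transiently at the 2-cell stage were 27.2 and 97.5, the lowest of all 13 libraries (138.0 to 1475 in the others). Between the groups 0 of these 7 genes were called (10.5% of all genes), and their median sums were 300.2 in light and 385.6 in control. The ratio of reads on Gm42418 to those on CT010467.1, a property of the library rather than of the 8 genes, was 1.58 to 1.77 in light and 2.34 to 4.03 in control. It also lay apart at the 8-cell stage (1.52 to 1.71 in light, 2.01 to 2.34 in control) and in morulae (1.49 to 1.67 and 2.34 to 4.14). At the 4-cell stage only control library 3 (1.61) lay within the light range (1.43 to 1.63). In blastocysts the groups overlapped (1.29 to 1.75 in light, 1.42 to 1.45 in control). Transcripts of cumulus cells in 2-cell libraries summed to at most 6.90 in control and to 3.89 to 59.6 in light. The part of these differences in the results of the 8 genes was not tested.

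**Figure D4:**
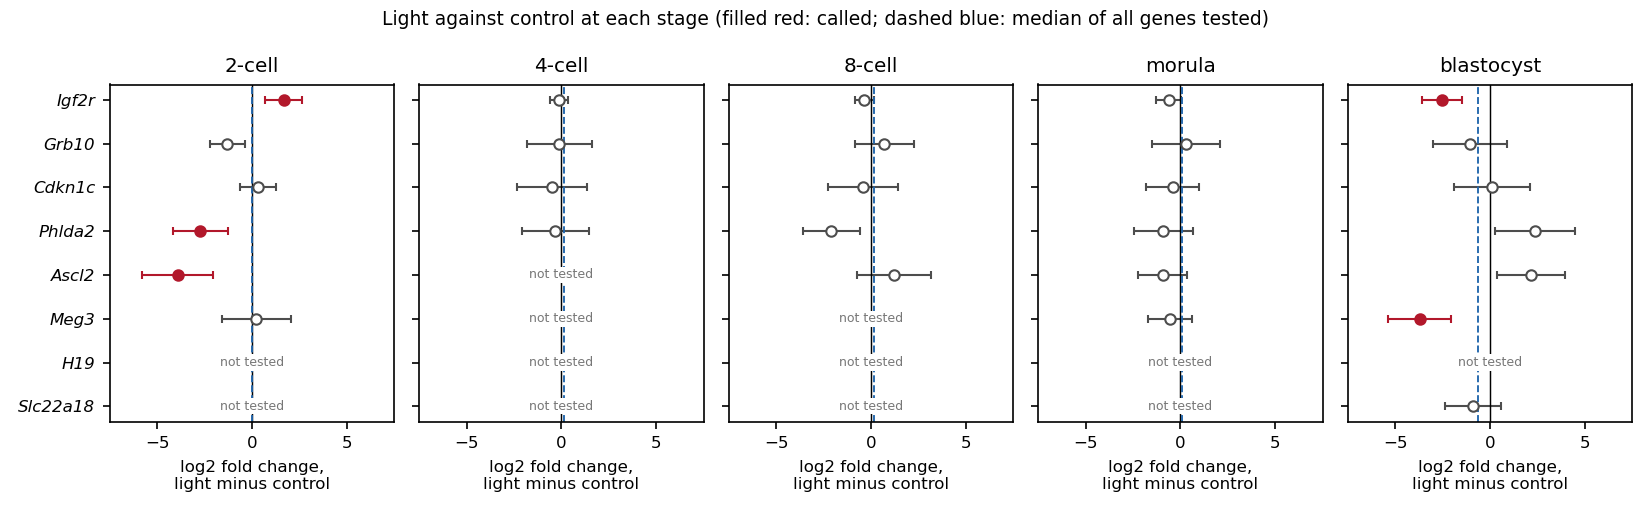
Log2 fold change of light against control for each gene at each stage (points, with 95% intervals from limma; filled red, called; dashed blue line, median of all genes tested). Calls were made at the 2-cell stage (Ascl2, Phlda2, Igf2r) and at the blastocyst stage (Igf2r, Meg3), where the median of all genes lies at -0.64.

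At the 4-cell, 8-cell and morula stages limma called 0 of the 8 genes between light and control, with 0, 1 and 0 at an unadjusted p under 0.05 (Phlda2 at the 8-cell stage) and 0 by edgeR and DESeq2 at each. At the 4-cell stage Igf2r had 469.5 to 849.5 in light and 513.3 to 876.7 in control, a log2 fold change of -0.11 (95% interval -0.59 to 0.36). Of all genes 1.45% were called there, and 0 of the 8 were called with or without control library 3. Ascl2, called lower at the 2-cell stage, had 4 reads in 1 of 8 light libraries and none in control at the 4-cell stage. The difference between the light effects at the 2 stages was 4.27 on the log2 scale for Ascl2 (SE 1.00, limma adjusted p = 0.0163; 1 of 8 genes, 3.07% of all genes called), and it was not called without the libraries under 2000000 reads (limma adjusted p = 0.0813). With no read in the control 4-cell libraries, a lower light value could not be seen at that stage, so this difference rests mainly on the one at the 2-cell stage. For Igf2r this difference was -1.80 (SE 0.54, limma adjusted p = 0.0548) and for Phlda2 2.40 (limma adjusted p = 0.263). That of Igf2r was called on CPM outside the ribosomal features (limma adjusted p = 0.0398), by edgeR (adjusted p = 0.00894) and by DESeq2 (adjusted p = 0.00416).

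At the 8-cell stage Phlda2 was 0 to 2.89 (median 0) in the 8 light libraries and 0, 2.92, 11.6 and 19.7 in the 4 control libraries. All light values lay below 3 of the 4 control values. Its log2 fold change of -2.09 (SE 0.72) missed the threshold (limma adjusted p = 0.0684; exact permutation test, two-sided, p = 0.0222), and it was called without control library 1 (limma adjusted p = 0.0114) or light library 6 (0.0447). Igf2r (-0.34), Cdkn1c (-0.42), Grb10 (0.71) and Ascl2 (1.21) were not called, and 9.21% of all genes were. Kcnq1ot1, the paternally expressed noncoding RNA of the chromosome 7 cluster in which Cdkn1c and Phlda2 lie, was called at this stage: it had 3.19 to 93.3 (median 22.2) in light and 0, 0, 0 and 0.417 in control (log2 fold change 4.10, SE 0.83, limma adjusted p = 0.00261). In control embryos it had 1.14 to 190.4 at the 4-cell stage and 0 to 196.1 in morulae, so the control 8-cell libraries were the low ones.

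In morulae, where 1.18% of all genes were called, Igf2r was 90.8 to 235.2 (median 134.5) in light and 124.6 to 479.2 (median 192.0) in control. The difference of -0.61 (SE 0.32) was not called (limma adjusted p = 0.358; exact permutation test, two-sided, p = 0.0540). The log2 fold changes of Cdkn1c, Phlda2, Meg3, Grb10 and Ascl2 lay between -0.94 and 0.31. Reads were few: Ascl2 was seen in 5 of 13 control and 1 of 6 light morula libraries, and Meg3 in 4 of 13 and 1 of 6.

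In blastocysts Igf2r and Meg3 were lower in light than in control libraries. Igf2r had 15.8 to 90.2 (median 23.0) in the 6 light libraries and 147.7, 156.7 and 185.4 in the 3 control libraries, without overlap. The log2 fold change was -2.52 (SE 0.51, limma adjusted p = 0.0101), and the exact permutation test gave its smallest possible p (two-sided, p = 0.0119, 84 regroupings). It was called under each of 8 alternatives (-2.56 to -1.73) and was lost without control library 2 (-2.42, limma adjusted p = 0.0532). Meg3 had 0 to 2.70 (median 0.960) in light and 5.78, 41.4 and 55.2 in control, also without overlap (log2 fold change -3.70, SE 0.81, limma adjusted p = 0.0132; exact permutation test, two-sided, p = 0.0119). Its call was lost with a pseudocount of 0.1 (limma adjusted p = 0.0548), without the filter (0.0512), on CPM outside the ribosomal features (0.0765) and without control library 2 (0.0743). The 2 calls of 8 genes, both lower, compare with 5.34% of all genes called, 4.98% lower and 0.353% higher, and groups without overlap (2 of the 7 tested) were found for 12.5% of all genes. The median of all genes was -0.64 here and -0.07 under the median ratio, on which both genes were called.

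Ascl2 and Phlda2, both genes of the trophoblast and placenta, had positive fold changes in blastocysts that were not called. Ascl2 was 5.26 to 24.2 (median 14.5) in light and 0, 0.348 and 18.0 in control (log2 fold change 2.17, limma adjusted p = 0.136). It was called without control library 3 (3.51, limma adjusted p = 0.0194). Phlda2 was 0.320 to 134.4 (median 3.43) in light and 0, 0.348 and 0.526 in control (log2 fold change 2.38, limma adjusted p = 0.164), with 5 of the 6 light libraries above the control range. Grb10 (1.28, 24.7 and 29.5 in control, 0 to 17.1 in light), Cdkn1c (0.348, 2.10 and 9.63 in control, 0 to 28.5 in light) and Slc22a18 (0, 1.93 and 5.91 in control, 0 to 6.42 in light) were not called either. H19 was at 50 reads in control library 3, a value of 32.1, with 0 or 1 read in each of the other 8 libraries. In that library Igf2, which shares its enhancers with H19, was also highest, at 116.2 against 2.88 to 31.7 in the light libraries.

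Markers of cell types differed among the control blastocyst libraries. The summed value of 11 inner cell mass markers was 2430.1, 1917 and 302.4 in control libraries 1, 2 and 3 and 148.6 to 226.5 in light, and that of 14 trophectoderm markers was 859.5, 5305 and 10034 in control and 3762 to 10479 in light. Of the 11 inner cell mass markers 11, 11 and 9 were read in the control libraries and 7 to 10 in the light ones. Control library 3 held low inner cell mass and high trophectoderm values, like the light libraries. Its Igf2r value (147.7) was near those of control libraries 1 and 2, its Meg3 value (5.78) was close to the light range, and its Ascl2 value (18.0) was within it. Primitive endoderm markers summed to 276.1 to 860.5 in control and 291.4 to 445.2 in light. Light library 23 had the highest trophectoderm sum and the highest values of Igf2r, Cdkn1c, Phlda2, Ascl2 and Slc22a18 in the light group. Going by the methods, each library is 1 picked cell, and its sums describe that cell. Which cell types were picked for each group and less RNA per cell cannot be told apart here. The part of the marker differences in these results was not tested. Y-linked genes reached 10 CPM in 6 of 6 light and 0 of 3 control blastocyst libraries, so embryo sex and light cannot be told apart here either.

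**Figure D5:**
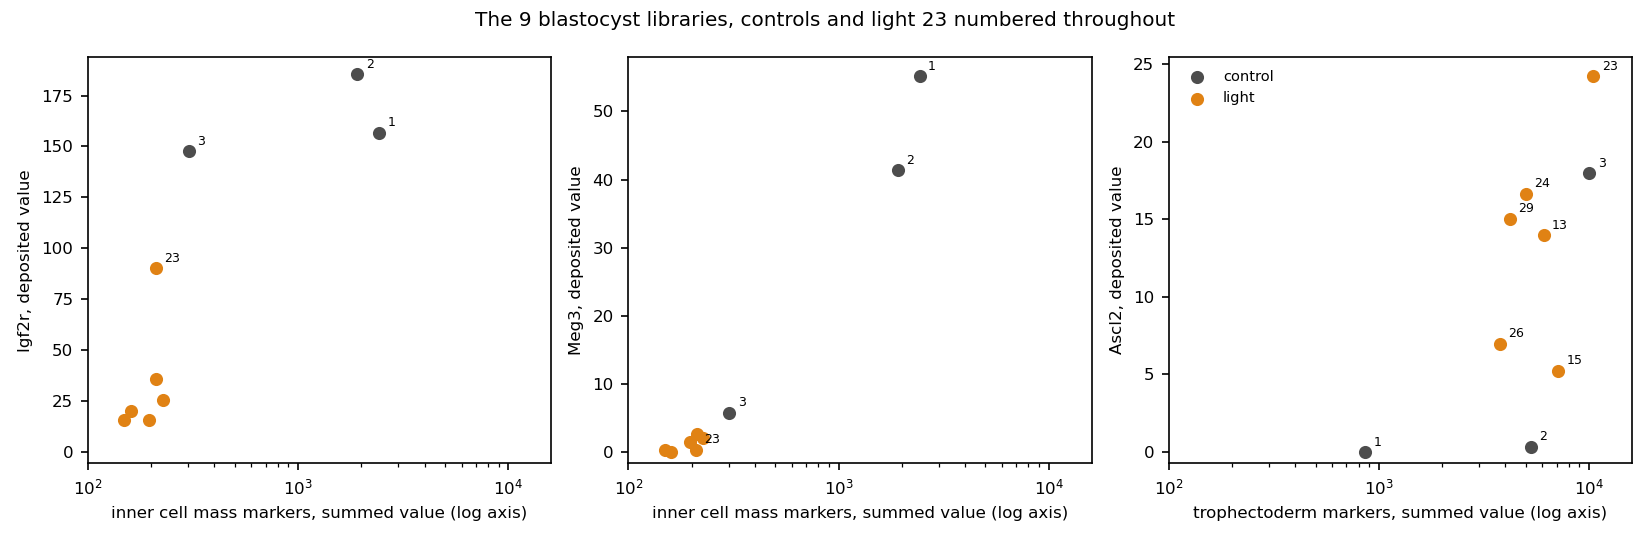
Igf2r and Meg3 against the summed value of the inner cell mass markers, and Ascl2 against that of the trophectoderm markers (logarithmic horizontal axes), in the 9 blastocyst libraries (grey, control; orange, light; numbers, libraries). Control library 3 has an inner cell mass sum of 302.4, near the light range of 148.6 to 226.5, and an Igf2r value of 147.7, above the light range.

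The difference between the light effects in blastocysts and in morulae was -1.90 for Igf2r and -3.15 for Meg3 (limma adjusted p = 0.0963 and 0.112), 3.11 for Ascl2 and 3.28 for Phlda2 (limma adjusted p = 0.182 and 0.228). By limma 0 of the 8 were called there, against 1.57% of all genes, although these 4 had an unadjusted p under 0.05 and DESeq2 called 1 (Phlda2; edgeR 0). Between the light effects at the morula and the 8-cell stage (2.62% of all genes) and at the 8-cell and the 4-cell stage (3.8% of all genes), 0 were called by limma, edgeR or DESeq2 and 0 had an unadjusted p under 0.05.

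Of 30 other maternally expressed imprinted genes in the table, 2 of 25 tested were called at the 2-cell stage, both lower in light (10.5% of all genes), 0 by limma at the 4-cell, 8-cell and morula stages (2, 3 and 3 at an unadjusted p under 0.05, 0 by edgeR and 1, 0 and 0 by DESeq2) and 1 of 14 in blastocysts (5.34% of all genes). These shares lie near those of all genes. Copg2, a coat protein subunit, was 10.3 to 54.4 in light and 41.4 to 114.8 in control (log2 fold change -1.60, SE 0.51, limma adjusted p = 0.0370). Osbpl5, which lies in the chromosome 7 cluster, was 0 to 1.68 in light and 0 to 21.4 in control (log2 fold change -2.47, SE 0.76, limma adjusted p = 0.0306). Rian, a noncoding RNA downstream of Meg3 in the same imprinted region, was 0 to 2.88 in light and 9.74, 14.8 and 23.7 in control blastocysts (log2 fold change -2.98, SE 0.73, limma adjusted p = 0.0211), and was called by neither edgeR nor DESeq2. The control groups of Rian and Meg3 thus both lay above their light groups. Rtl1, the paternally expressed protein gene of that region, had 0.348, 3.85 and 6.31 in control blastocysts and no read in light ones, and Dlk1 had no read in any library. From the 2-cell to the 4-cell stage 15 of the 20 other genes tested were called in control (46.1% of all genes) and 9 of 20 in light (36.5% of all genes), all lower. The medians were -2.47 and -1.34 beside -0.72 and -0.56 over all genes. The count models called 14 (edgeR) and 13 (DESeq2) in control, and 6 and 5 in light.

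Reads of overlapping genes bear on 3 of the 8. Igf2r overlaps Airn, its antisense RNA, Cdkn1c overlaps Gm44732 on the other strand, and Meg3 overlaps Gm26906 and Gm27596, and whether strand was used in counting is not given in the sources used here. Airn had 0 to 25.4 in control 2-cell libraries, beside 21.0 to 122.6 of Igf2r, and at most 5.66 in any light group.

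The genes whose pattern over the 67 libraries was most like that of each member were found by Pearson correlation of log2(value + 1), in which libraries share stage and depth. For Igf2r they were Zmpste24 (0.88), Usp10 (0.87) and Impdh2 (0.86), for Cdkn1c Rcan3 (0.78), Fbxw14 (0.78) and Kbtbd8 (0.76), and for Phlda2 Nudt7 (0.71), Sfmbt1 (0.69) and Tacc2 (0.68). Grb10 was most like Ints14 (0.71), Mdm1 (0.70) and Eif4e1b (0.69), and Meg3 most like Upp1 (0.71), Ucp2 (0.66) and Cep128 (0.62). Ascl2 reached 0.58 with Cbfa2t3, 0.57 with Lurap1l and 0.56 with Bhlhe40. H19, with reads in 6 libraries, reached 0.49 with Igf2 and 0.48 with both Zfp326 and Slc40a1. Among the members themselves, Cdkn1c and Phlda2 had the highest correlation (0.57) and Igf2r and Ascl2 the lowest (-0.50).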

How the data were processed

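Embryonic cells of 5 stages were sequenced by the SMART-seq2 method in 33 control and 34 light libraries. The authors aligned and counted reads (HISAT2, HTSeq 0.9.1 and mm9 are named in the submitters' processing notes) and deposited 1 table of 26414 genes holding signal values. The methods describe RPKM, but no division by length was found: multiplied by a size factor of the library, at least 99.95% of the values above 0 of each library were whole reads (tolerance 0.01), and 11 genes had a value that was not whole. These reads served edgeR and DESeq2 as alternatives. The size factors follow the ribosomal features CT010467.1 and Gm42418, so comparisons were repeated with the median ratio and with CPM outside these features. Intervals and limits from reads cover counting error only, since reads without molecular identifiers are not independent molecules.

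Log2(value + 1) was fitted with limma 3.58.1 (trend) in R 4.3.3 for genes that exceeded a value of 1 in 3 or more of the libraries compared; edgeR 4.0.16 (quasi-likelihood) and DESeq2 1.42.0 were the count models, and values were tabulated with Python 3.11.15. Groups came from the labels, and the fits were checked on simulated data. Comparisons were light against control at each stage, neighbouring stages within a condition, and the difference between the light effects of neighbouring stages. Exact permutation tests of single genes were two-sided. Alternatives also covered the pseudocount (0.1), the filter, 1 fit over all libraries, the replicate number as a block and leaving out libraries. All 8 members were named, partners in their loci, other maternally expressed genes called in a comparison of light with control, and the 3 most correlated genes of each member with a group mean of at least 10. Exon lengths, overlaps, distances and the promoter windows with their coordinates came from GRCm38 tables matched by symbol, whereas the notes name mm9, and no value was read by coordinate. The members and lists were chosen with earlier results of these data known.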

Additional observations from a re-analysis of the deposited data

Results flagged for a closer look

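Of 52 groups of 4 to 10 libraries with values of a gene above 0, 25 held a highest library far from the next one by Dixon's criterion. Chance gives about 5% of groups for normally distributed values only, which these sparse counts are not, and in 8 of the 25 the other libraries had no read, so that any single library with reads meets the criterion. No lowest library stood apart.

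Light blastocyst library 23 was far above the rest of its group for 4 genes, at 134.4 for Phlda2 (next 7.20), 90.2 for Igf2r (next 36.0), 28.5 for Cdkn1c (next 6.30) and 6.42 for Slc22a18 (next 0.388). Light 2-cell library 15 was highest at 36.7 for Meg3, 100.1 for Grb10 and 5.01 for Ascl2, on 22, 60 and 3 reads. Light 4-cell library 9, with 1763863 reads in all, was highest at 28.9 for Phlda2, 108.0 for Grb10 and 6.08 for Ascl2. At the 8-cell stage light library 6 had 2.89 of Phlda2 and 17.8 of Meg3 (next 0.424), library 8 had 63.5 of Cdkn1c (next 11.1) and library 11 had 19.9 of Ascl2 (next 7.63). Control 8-cell library 1 had 26.8 of Ascl2 and library 3 had 3.48 of Meg3, with no read in the other 3 libraries in both cases. Light 4-cell library 1 had 35.8 of Cdkn1c (next 13.3), and control 4-cell library 2 had 17.0 of Phlda2 (next 5.96). In light morulae the far values were 4.67 of Cdkn1c (library 6), 4.84 of Phlda2 and 1.21 of Meg3 (library 9) and 0.394 of Ascl2 (library 3), on 5, 4, 1 and 1 reads. H19 was read in a single library of 3 groups, at 1.59 in control 2-cell library 8, 5.11 in control 4-cell library 1 and 2.80 in light 2-cell library 10, on 4, 6 and 4 reads.

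The light effect on Ascl2 differed between the 4-cell and the 2-cell stage by 4.27 on the log2 scale (limma's interaction term, adjusted p = 0.0163), and was not called without the libraries under 2000000 reads (limma adjusted p = 0.0813). Ascl2 had no read in the control 4-cell libraries, where no lower light value was possible, so the difference rests mainly on that at the 2-cell stage.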

How the results depend on the processing

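No fold change of the 8 genes turned its direction while called. Under alternatives other than a left-out library, 709 of 754 kept their side of the threshold, 30 lost a call and 15 gained one. Most of the 754 were of genes not called in the report, which could gain a call but not lose one. The count of calls between light and control was 0 with the replicate block at the 2-cell stage (3 in the report), 1 by single-gene exact tests at the 8-cell stage (0 in the report), and 1 in blastocysts with a pseudocount of 0.1, without the filter or on CPM (2 in the report). Without 1 library it ranged from 2 to 4 at the 2-cell stage, from 0 to 1 at the 8-cell stage (1 without light library 6 or control library 1) and from 0 to 3 in blastocysts (0 without control library 2), and stayed at 0 at the 4-cell stage and in morulae. From the control 8-cell stage to the morula 1 gene was called under the median ratio, CPM and DESeq2, and 0 to 1 without 1 library (1 without control 8-cell library 4). From the control morula to the blastocyst it was 2 without the filter, 0 with edgeR, DESeq2 or the block, and 0 to 1 without 1 blastocyst library (0 without library 1 or 2). In light, the block gave 0 calls at the steps from the 2-cell to the 4-cell stage, from the 4-cell to the 8-cell stage and from the 8-cell stage to the morula. DESeq2 gave 1 from the light 8-cell stage to the morula, and the light 4-cell to 8-cell step had 1 under the median ratio, CPM, DESeq2 and without libraries under 2000000 reads, and 0 with edgeR. The difference between the light effects at the 4-cell and the 2-cell stage had 2 calls under CPM, edgeR and DESeq2 (Ascl2 and Igf2r). It had 0 without libraries under 2000000 reads, an alternative chosen after seeing the data. That between the blastocyst and the morula had 1 with DESeq2, and 0 to 1 without 1 control blastocyst library (1 without library 3). The cause of these changes was not tested. Same-numbered libraries did not deviate together (correlations -0.087 to 0.069). This cannot exclude a pairing, since few numbers were shared in each comparison. With the block 0 of 18532 genes were called between light and control at the 2-cell stage, so the lost calls there are not particular to the 8 genes. No paired analysis was possible because no label pairs the libraries. The block was left out where groups share fewer than 2 numbers. That held for the 8-cell and blastocyst comparisons of light with control and the control step from the 2-cell to the 4-cell stage. It also held for the light step from the morula to the blastocyst and the differences between light effects. The small number of control blastocyst libraries (3) and low reads of H19, Slc22a18, Meg3 and Ascl2 limit what could be detected.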
